A study of Macaca mulatta with 24 samples.

Results

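The comparison described here sets 6 animals that received a high-fat Western-style diet alone (*WSD*) against 6 that received testosterone alone (*T*), 12 of the 24 female rhesus macaques with RNA-seq of omental white adipose tissue (WAT). The members were chosen by the condition given in the sample labels, without regard to any measured value. *T* animals carried testosterone implants and ate monkey chow, and *WSD* animals ate the high-fat diet and had no testosterone. Each implant not releasing testosterone was a cholesterol control implant, and every animal was treated for 3 years before its biopsy (labelled age, 4 years). The other 12 animals are untreated controls on chow (*C*, n = 6) and animals given both treatments (*T* + *WSD*, n = 6), and they serve as reference points. The sequenced animals had been picked by the authors from larger randomized groups as representative of the metabolic findings, and whole tissue was extracted, so that fewer cells of a type and less RNA per cell cannot be told apart in any value below. The 2 groups differ in both factors at once, so the contrast shows where the single treatments lie relative to each other and not which of them moved a gene.

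Fat cells can build fatty acids from sugar. Mitochondrial citrate leaves through the citrate carrier (SLC25A1) and is split by ATP citrate lyase (ACLY), the acetyl-CoA is carboxylated by ACACA, and fatty acid synthase (FASN) assembles the chain with NADPH from malic enzyme (ME1) and the pentose phosphate pathway. This programme is switched on by insulin and carbohydrate through the transcription factors SREBF1 and MLXIPL, and it responds to the fat content of the diet. Androgens act on both preadipocytes and mature fat cells, and are known to influence where fat is stored and how readily it is released.

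Between 9006135 and 28270776 reads were counted on genes in the 12 libraries (medians 21995508 in *T* and 22389113 in *WSD*). In 4 of them, *T* replicates 13 and 14 and *WSD* replicates 19 and 20, the unnamed gene ENSMMUG00000038258 took 19.9% to 32.6% of the counts, against 0.879% to 2.41% in the other 8. These libraries, 4 here and 2 in each of *C* and *T* + *WSD*, are called skewed libraries below, and the main results are also given without them. Of 20 listed adipocyte markers 17 had an identifier, and all 17 had enough counts to be tested. ADIPOQ (adiponectin) stood at 907 to 2124 CPM (counts of a gene scaled to a common library size) in *T* and 381 to 1827 in *WSD*. The summed adipocyte markers ran from 12171 to 29256 CPM in *T* (median 17447) and from 14103 to 30752 in *WSD* (median 22791). Markers of the mesothelium, the sheet of cells that covers omental fat, summed to 2981 to 18277 CPM in *T* (median 4100) and 876 to 6473 in *WSD* (median 4763). Both ranges overlap between the groups, and pancreas markers, which would mark a neighbouring organ, stayed at or under 1.34 CPM in sum.

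Transcription was compared gene by gene over 15207 genes with edgeR's quasi-likelihood F-test, as the log2 fold change of *WSD* minus *T*, so that a positive value is higher under the diet. No gene was called (0 of 15207, 0%) under the rule of an adjusted p under 0.05 with over 1.5-fold difference, and the smallest adjusted p was 0.0665. At an unadjusted p under 0.05, 995 genes (6.54% of those tested) were higher in *WSD* and 497 (3.27%) were lower. All 6 *WSD* animals lay above all 6 *T* animals in 17 genes (0.112%) and below them in 11 (0.0723%). The counts that random splits of the animals would give were not computed, so no conclusion is drawn from these counts alone. DESeq2 on the same counts called 36 of 15971 genes (0.225%), 32 higher (0.2%) and 4 lower (0.025%) in *WSD*, and all 36 had an unadjusted edgeR p under 0.05. The median log2 fold change over all tested genes was 0.00103. In the text that follows, "at an unadjusted p" refers to edgeR, and such genes did not pass the adjusted test. In the fit without the skewed libraries, 10.1% of all tested genes were higher and 7.85% lower at that threshold. List counts from that fit are to be read against these larger shares.

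The gene closest to the threshold has no symbol. ENSMMUG00000040072 was nearly silent in *T*, with 0 to 9 counts (0 to 0.281 CPM, median 0.0372), and was counted in every *WSD* animal, at 9 to 58 counts (0.815 to 2.33 CPM, median 1.51). The groups did not overlap, the log2 fold change was 4.20 (SE 0.70, edgeR adjusted p = 0.0665), and DESeq2 gave an adjusted p of 8.03e-05.

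The overall distance of the groups was also modest. In the 500 genes that varied most across these animals, the first principal component (PC1) held 23.9% of the variance and the second (PC2) 17.8%. PC1 scores averaged -5.55 ± 7.44 (SD, n = 6) in *T* and 5.55 ± 11.9 (SD, n = 6) in *WSD*, a difference of 11.1 (two-sided exact permutation test over all splits of 6 against 6, p = 0.0779). The pseudo-F, the ratio of squared distances between groups to those within, was 1.49 (one-sided exact permutation test, p = 0.0671). With the labels permuted only within the skewed and within the other libraries, the exact p values were 0.0857 for PC1 and 0.0762 for the pseudo-F. *WSD* animals were somewhat more dispersed than *T* animals, with a median distance between pairs over all tested genes of 80.6 against 74.2, without a test.

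**Figure D1:**
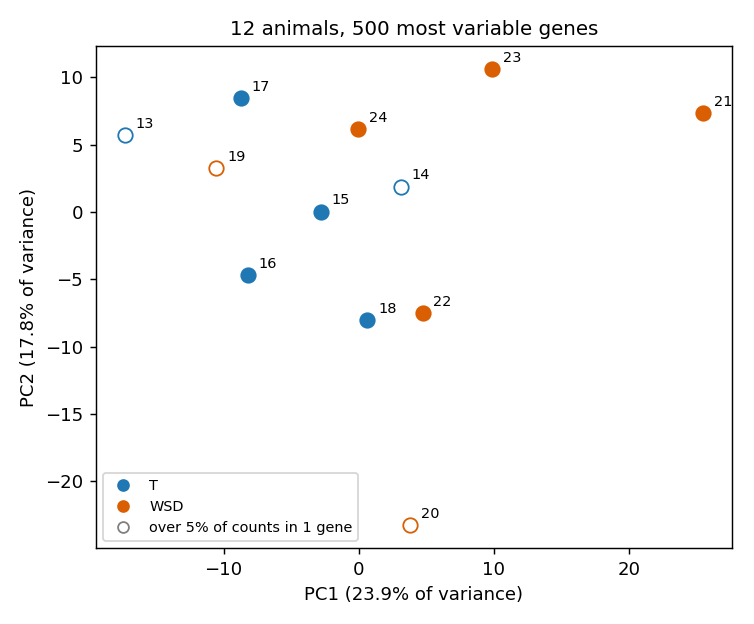
Principal component scores of the 12 animals from the 500 most variable genes (PC1, 23.9% of variance, on the x axis and PC2, 17.8%, on the y axis, in score units), numbered by replicate, with the 4 skewed libraries as open circles. *T* scores run from -17.3 to 3.14 on PC1 and *WSD* scores from -10.5 to 25.5, and *WSD* replicate 20 lies apart on PC2 at -23.3.

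In the 8 libraries that are not skewed (4 *T*, 4 *WSD*) the 500 most variable genes were chosen anew, so that PC1 differences are not on the scale given above. The PC1 difference was 19.8 and the pseudo-F 2.01, each with an exact permutation p of 0.0286, the smallest value that the 70 splits allow. With the 8 skewed libraries of all 4 groups left out of the edgeR fit, 83 of 15448 genes (0.537%) were called, 75 higher (0.485%) and 8 lower (0.0518%) in *WSD*, with the smallest adjusted p at 0.00615 for TGIF2, a transcriptional repressor of the TALE homeobox family. Of the 83, 75 had an unadjusted p under 0.05 in the fit of all animals and 82 had the same sign there. That fit shares these 8 animals, and the remaining gene, SNTG1, was not tested in it. Among the genes called were enzymes and carriers of fat and sugar metabolism, here with their log2 fold changes and edgeR adjusted p values. THRSP, a nuclear protein of lipogenic tissue, was higher by 3.07 (adjusted p = 0.0319) and ME1 by 2.85 (adjusted p = 0.0408). TALDO1, the transaldolase of the pentose phosphate pathway, was higher by 1.31 (adjusted p = 0.0319), HK2, a hexokinase, by 1.96 (adjusted p = 0.0319) and DGAT2, which adds the last acyl chain of a triglyceride, by 1.60 (adjusted p = 0.0475). Also called higher were LPCAT3, IDI1, PGK1, APOC1, RBP4, NQO1, AKR1B1, AKR1C1, STS, NDUFB4, NDUFS6, PSMD14 and BHMT2, with log2 fold changes from 0.69 (NDUFB4) to 5.38 (BHMT2). The 8 genes called lower were GPRASP1, GPRASP2, ANKRD28, CNTLN, STEAP2, ARHGEF26, PDE4D and ENSMMUG00000044627, from -1.39 (STEAP2) to -0.65 (GPRASP2). The genes of this paragraph outside the fixed lists were chosen after their values were seen.

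Among the lists with 12 or more tested members, de novo lipogenesis had the highest share past the unadjusted threshold. Of its 16 tested members, 12 were higher in *WSD* at an unadjusted p under 0.05 (75%, against 6.54% of all tested genes) and 0 were lower, with a median log2 fold change of 1.16. No member passed the adjusted test in edgeR. All 16 values were positive in the fit of all animals, but those of ACACB, FADS1 and FADS2 lay near 0 and turned negative under some alternatives (ACACB: -0.19 without the skewed libraries; FADS1 and FADS2: -0.10 each without *WSD* replicate 23). The count of 12 was also 12 without the skewed libraries (where 10.1% of all tested genes were higher and 7.85% lower at an unadjusted p), ranged from 8 to 12 when 1 animal was left out, and was 8 without *WSD* replicate 24, the animal with the highest summed level.

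Summed over the 16 members, *T* animals ran from 7625 to 16389 CPM (median 10108) and *WSD* animals from 13249 to 53134 (median 22054). Only *T* replicate 14 (16389) lay inside the *WSD* range. In the 8 libraries that are not skewed the sums did not overlap, at 7625 to 10112 CPM in *T* and 15027 to 53134 in *WSD*. In the skewed libraries the *T* animals stood at 11834 and 16389 CPM and the *WSD* animals at 13249 and 39310. As reported above, the summed adipocyte markers of the groups overlapped. With the mean of the adipocyte markers as a covariate, an alternative chosen after the data were seen, 12 members were past the unadjusted threshold, and with the mesothelial mean 11 were. Both means come from the same libraries and may themselves differ with treatment, so these fits do not decide the part of cell composition.

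Carbon enters the pathway through SLC25A1 and ACLY. ACLY (ENSMMUG00000018931) was measured at 127 to 395 CPM in *T* (median 196) and at 326 to 3575 CPM in *WSD* (median 1359). All *WSD* animals but replicate 19 exceeded every *T* animal, and the log2 fold change was 2.64 (SE 0.65, unadjusted p = 0.000482, edgeR adjusted p = 0.268, DESeq2 adjusted p = 0.00918). SLC25A1 (ENSMMUG00000005431) ran from 48.8 to 123 CPM in *T* (median 91.9) and from 109 to 668 in *WSD* (median 222). It again overlapped only through *WSD* replicate 19, with a log2 fold change of 1.65 (SE 0.41, unadjusted p = 0.000561, DESeq2 adjusted p = 0.024). ACSS2, which makes acetyl-CoA from acetate, had a log2 fold change of 1.31 (SE 0.43, unadjusted p = 0.00548), which was 0.72 without *WSD* replicate 24.

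The steps of chain synthesis showed the same order. ACACA (ENSMMUG00000009349), the cytosolic acetyl-CoA carboxylase, stood at 127 to 438 CPM in *T* (median 229) and 340 to 1561 in *WSD* (median 936), with a log2 fold change of 1.91 (SE 0.51, unadjusted p = 0.001, DESeq2 adjusted p = 0.0333). ACACB, the mitochondrial form that restrains fatty acid oxidation, had closer medians, 1373 CPM in *T* and 1076 in *WSD*, and a log2 fold change of 0.06 (SE 0.34). FASN (ENSMMUG00000012811), the most abundant member, ran from 3770 to 9319 CPM in *T* (median 5152) and from 7081 to 30577 in *WSD* (median 10107). Its ranges overlapped more, with 3 *WSD* animals above every *T* animal, and its log2 fold change was 1.32 (SE 0.59, unadjusted p = 0.036, DESeq2 adjusted p = 0.309). Chain editing was uneven: ELOVL5, an elongase, had a log2 fold change of 1.06 (SE 0.42, unadjusted p = 0.0184), while the desaturases FADS1 and FADS2 stood at 0.10 (SE 0.19) and 0.21 (SE 0.29).

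Suppliers of NADPH were higher in *WSD* as well. ME1 (ENSMMUG00000012592) was measured at 32 to 112 CPM in *T* (median 70.6) and 97 to 941 in *WSD* (median 244). Every *WSD* animal except replicate 19 exceeded every *T* animal, and the log2 fold change was 2.32 (SE 0.55, unadjusted p = 0.000318, DESeq2 adjusted p = 0.00918). PGD and TKT of the pentose phosphate pathway had log2 fold changes of 0.63 and 0.92, with unadjusted p values of 0.00481 and 0.0183. Of the regulators, SREBF1 ran from 43.5 to 104 CPM in *T* and 69.7 to 268 in *WSD* (log2 fold change 1.26, SE 0.40, unadjusted p = 0.00428), and MLXIPL from 17.2 to 29.9 and 18.2 to 41.2 CPM (0.25, SE 0.27, unadjusted p = 0.352). THRSP ran from 383 to 3193 CPM in *T* and from 1232 to 9213 in *WSD*, with 4 *WSD* animals above every *T* animal (2.21, SE 0.68, unadjusted p = 0.00365).

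**Figure D2:**
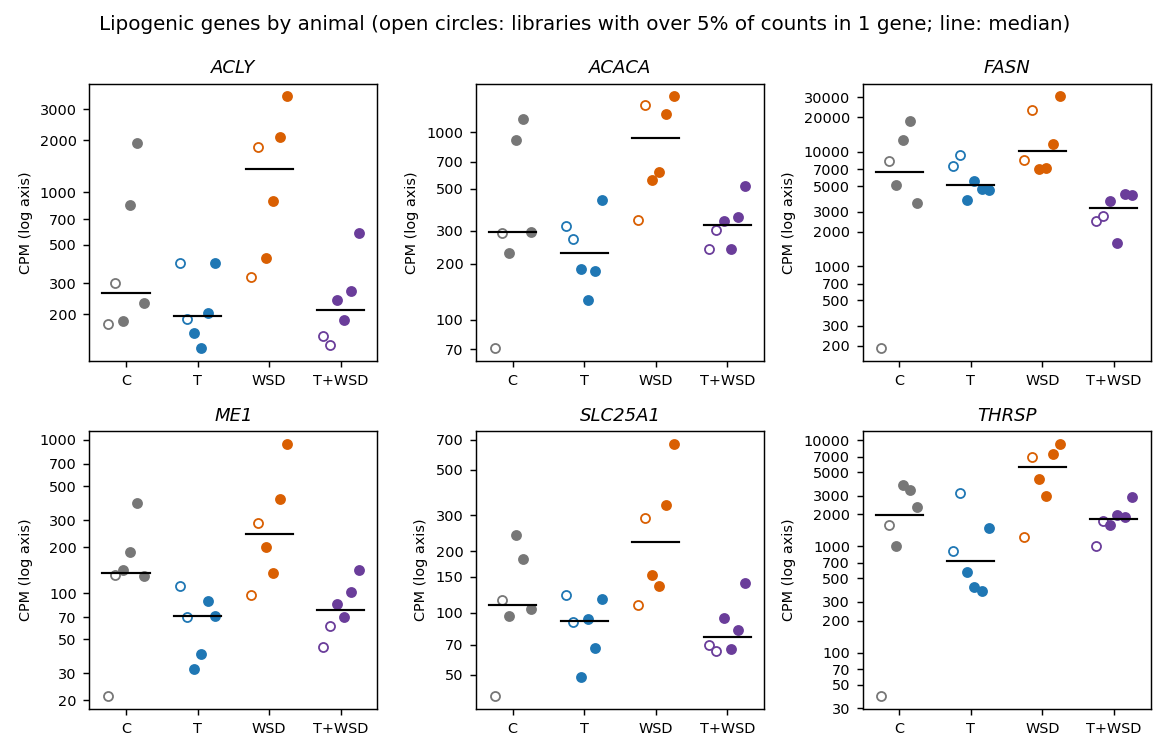
CPM (log axis) of 6 lipogenic genes in each animal of the 4 groups on the x axis, with the group median as a line and skewed libraries as open circles. *WSD* medians are the highest of the 4 groups in every panel, such as 1359 CPM against 196 in *T* for ACLY, and *WSD* replicate 19, the first open circle of its group, is the lowest *WSD* animal for 5 of the 6 genes, all but FASN.

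The *C* mean lay between the single treatments for most of these genes. This list stood out for its gap between *WSD* and *T*, which by itself favours such a position. No conclusion is drawn from it. Against *C*, the median log2 fold change of the 16 members was 0.80 in *WSD*, where 15 were positive and 6 were higher at an unadjusted p under 0.05 (9.59% of all tested genes were), and -0.36 in *T*, where 12 were negative and 2 lower (5.08% of all tested genes were). These values share the 6 controls, 1 of which, *C* replicate 1, had a summed level of 1393 CPM against 8922 to 30361 in the other controls. Mean ACLY was 1521 CPM under the diet alone, 610 in the controls, 261 under both treatments and 244 under testosterone alone, and mean ME1 was 345, 166, 84.1 and 69.2 CPM in the same order. The control median of ACLY was lower than its mean, at 266 CPM, with the highest control at 1924. Its medians were 196 CPM in *T* and 212 in *T* + *WSD*. Animals given both treatments did not share the high level of *WSD*: their sums ran from 6713 to 11483 CPM (median 8689), below the lowest *WSD* animal. The contrast of *T* + *WSD* with *C*, which shares no animal with *WSD* against *T*, had a median of -0.28, with 5 of 16 members positive.

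**Figure D3:**
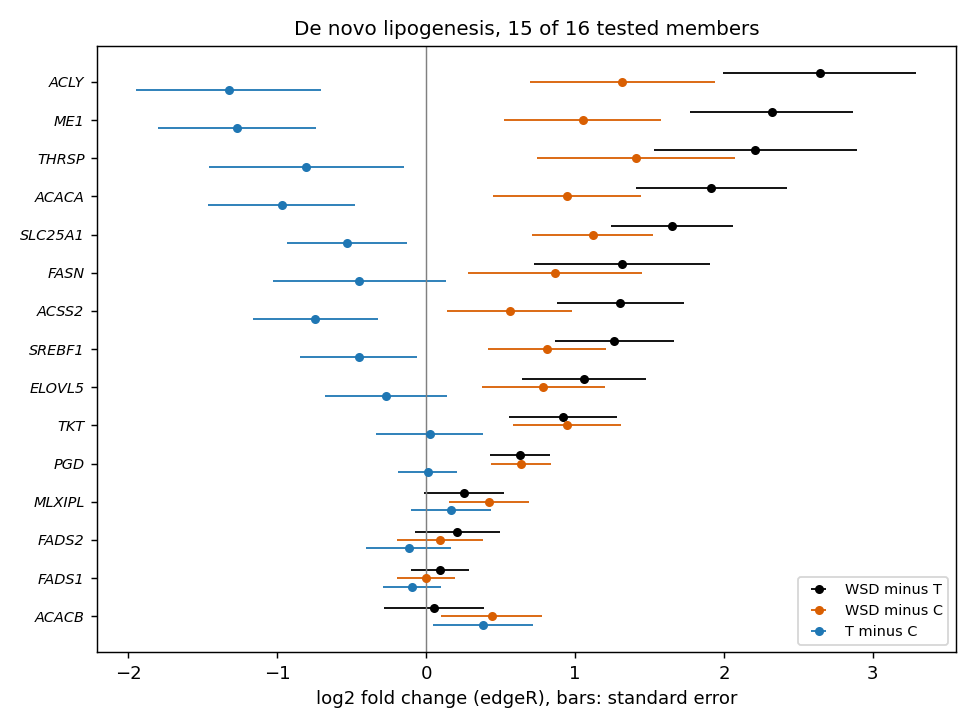
Log2 fold changes (x axis, edgeR, bars are standard errors) of 15 of the 16 tested lipogenesis members (y axis) for *WSD* minus *T*, *WSD* minus *C* and *T* minus *C*. ACLY has the largest *WSD* minus *T* value, 2.64, with *WSD* minus *C* at 1.32 and *T* minus *C* at -1.33, and the 4 members at the bottom run from 0.06 to 0.25 for *WSD* minus *T*.

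The following genes outside that list were among the 32 that DESeq2 called higher in *WSD*, so that their direction was fixed by that choice, and all but AACS and HK2 were chosen after their values were seen. SLC2A5 (ENSMMUG00000016307), the fructose transporter, was measured at 13.1 to 62.8 CPM in *T* (median 26.5) and 31.2 to 388 in *WSD* (median 134), with a log2 fold change of 2.39 (SE 0.58, unadjusted p = 0.000429, DESeq2 adjusted p = 0.0108). HK2 ran from 7.38 to 38.3 CPM in *T* and from 17.3 to 62.7 in *WSD*, where only replicate 19 fell within the *T* range (1.40, SE 0.37, unadjusted p = 0.000983, DESeq2 adjusted p = 0.0484). AACS (ENSMMUG00000011117), which turns acetoacetate into acetoacetyl-CoA for lipid synthesis, did not overlap: 34.2 to 62 CPM in *T* (median 47) and 69.7 to 468 in *WSD* (median 145), with a log2 fold change of 1.99 (SE 0.45, unadjusted p = 0.000206, edgeR adjusted p = 0.268, DESeq2 adjusted p = 0.00918). PANK3, which controls coenzyme A synthesis, and SLC25A10, the mitochondrial dicarboxylate carrier, had log2 fold changes of 1.34 and 1.02 with DESeq2 adjusted p values of 0.0388 and 0.0489. DHRS11, a short-chain dehydrogenase of steroid and other carbonyl substrates, had one of 1.69 (SE 0.41, DESeq2 adjusted p = 0.0226).

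In triglyceride synthesis 4 of 15 members were higher (26.7%, against 6.54% of all tested genes) and 1 lower (6.67%, against 3.27%) at an unadjusted p under 0.05, with a median of 0.11. DGAT2 ran from 615 to 2708 CPM in *T* (median 1082) and 1283 to 4397 in *WSD* (median 3050), a log2 fold change of 1.21 (SE 0.50, unadjusted p = 0.0236). LPIN3, a phosphatidate phosphatase, was the lower member, at 2.99 to 8.92 CPM in *T* and 1.81 to 4.62 in *WSD* (-0.84, SE 0.31, unadjusted p = 0.0113). The monoacylglycerol acyltransferases were low in both groups. MOGAT1 had 3 to 8 counts in each *T* animal and 1 to 56 in the *WSD* animals (0.102 to 0.299 and 0.141 to 2.25 CPM), with 4 of 6 *WSD* animals above every *T* animal (2.80, SE 0.74, unadjusted p = 0.000977, DESeq2 adjusted p = 0.0489). MOGAT2 reached 136 CPM in *WSD* replicate 21 and 0 to 1.46 CPM in the other 5 *WSD* animals, so that its log2 fold change of 5.88 was 1.32 without that animal. Without *T* replicate 16 or *WSD* replicate 20 the 4 higher members were 2, and the 1 lower member was 0 without *T* replicate 15 and 2 without *WSD* replicate 20 or without the skewed libraries.

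In the list of fatty acid uptake, droplets and binding 3 of 17 members were lower (17.6%, against 3.27% of all tested genes) and 1, ACSL3, was higher (5.88%, against 6.54%). CIDEB, a lipid droplet protein, ran from 1.02 to 14.5 CPM in *T* and 0.652 to 1.62 in *WSD* (-1.85, SE 0.51, unadjusted p = 0.00143), a value that was -0.63 without *T* replicate 17. PLIN5, another droplet protein, ran from 1.49 to 5.19 and 0.244 to 4.07 CPM (-1.43, SE 0.60, unadjusted p = 0.0253), which was -2.28 without *WSD* replicate 20 and -2.67 without the skewed libraries. SLC27A1, a fatty acid transporter, ran from 23.8 to 47 and 16.5 to 28.5 CPM (-0.43, SE 0.17, unadjusted p = 0.0206), which was -0.27 without *T* replicate 16. The 3 lower members were 1 without *T* replicate 16 or *WSD* replicate 23. Lipolysis had 1 of 16 members higher (6.25%) and 0 lower, and fatty acid oxidation 1 of 24 higher (4.17%) and 0 lower, with medians of 0.12 and 0.14. Without the skewed libraries 3 lipolysis genes were higher and 1 lower, and 2 oxidation genes were higher (10.1% of all tested genes were higher there and 7.85% lower).

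For cholesterol, synthesis genes and efflux genes each had a few members past the unadjusted threshold. Of 18 synthesis genes 4 were higher (22.2%, against 6.54% of all tested genes) and 1 lower (5.56%, against 3.27%), with a median of 0.30, among them IDI1, the isopentenyl diphosphate isomerase, with medians of 17.5 CPM in *T* and 40.3 in *WSD* (1.16, SE 0.33, unadjusted p = 0.00196), and LSS, the lanosterol synthase, with medians of 22.5 and 40.6 CPM (0.76, SE 0.26, unadjusted p = 0.00705). Of 15 genes of cholesterol efflux and LXR targets 4 were higher (26.7%) and 0 lower, with a median of 0.03. LPCAT3 (ENSMMUG00000010210), which loads polyunsaturated chains into membrane phospholipids, did not overlap, at 23.2 to 51.6 CPM in *T* (median 44.5) and 58.1 to 109 in *WSD* (median 80.3), with a log2 fold change of 1.03 (SE 0.25, unadjusted p = 0.000443, DESeq2 adjusted p = 0.0333). ABCA1, the cholesterol exporter, ran from 218 to 464 and 314 to 755 CPM (0.63, SE 0.19, unadjusted p = 0.00372), and its value was 0.28 without the skewed libraries. CETP, which exchanges cholesteryl esters between lipoproteins, ran from 7.63 to 56 and 33.8 to 186 CPM (1.53, SE 0.49, unadjusted p = 0.00485), and its value was 1.01 without *WSD* replicate 20 and 0.91 without the skewed libraries. The 1 lower synthesis gene was past the threshold in neither the fit without *T* replicate 16 or 18 nor the fits without *WSD* replicate 19, 21, 23 or 24 (count of 0 in each).

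Genes of the tricarboxylic acid cycle and the respiratory chain lay slightly higher in *WSD*. All 20 tested genes of the tricarboxylic acid cycle had positive log2 fold changes, with a median of 0.40, and 6 were higher at an unadjusted p under 0.05 (30%), where 50.2% of all tested genes were positive and 6.54% higher. MDH1, the cytosolic malate dehydrogenase, ran from 173 to 308 CPM in *T* and 208 to 501 in *WSD* (0.61, SE 0.21, unadjusted p = 0.00748), and SUCLG1, a succinyl-CoA synthetase subunit, from 113 to 201 and 142 to 277 CPM (0.41, SE 0.16, unadjusted p = 0.02). Of 43 nuclear-encoded respiratory chain subunits 42 were positive (median 0.36) and 16 were higher (37.2%), led by NDUFB4 of complex I at 47.4 to 91.9 CPM in *T* and 65.2 to 118 in *WSD* (0.51, SE 0.16, unadjusted p = 0.00338). These counts depended on single animals. The cycle count was 3 without *T* replicate 13, 17 or *WSD* replicate 24, 12 without *T* replicate 14, 10 without *WSD* replicate 19 and 1 without *WSD* replicate 20. The subunit count was 31 without *T* replicate 14, 6 without *T* replicate 15, 4 without 17 and 8 without 18, 28, 2, 26 and 2 without *WSD* replicates 19, 20, 22 and 24, and 26 without the skewed libraries. Against *C*, 30 of the 43 subunits were higher in *WSD* and 0 in *T* at an unadjusted p under 0.05 (9.59% and 3.54% of all tested genes).

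Glycolysis and the proteasome shared this direction. Of 17 glycolytic and gluconeogenic genes 6 were higher (35.3%) and 1 lower (5.88%), with a median of 0.18. ALDOA, the aldolase, had medians of 207 CPM in *T* and 364 in *WSD* (0.63, SE 0.20, unadjusted p = 0.00549), PGK1 medians of 144 and 221 (0.53, SE 0.17, unadjusted p = 0.00452) and LDHA medians of 232 and 331 (0.51, SE 0.19, unadjusted p = 0.0109). The 1 lower gene was not past the threshold (count of 0) without *T* replicate 16, *WSD* replicate 20, 21 or 22 or the skewed libraries. All 27 proteasome subunits were positive (median 0.20) and 11 were higher (40.7%), such as PSMA3 with medians of 32 and 44 CPM (0.42, SE 0.11, unadjusted p = 0.000978). That count was 7 without *T* replicate 16 or *WSD* replicate 20, 19 without *WSD* replicate 19 and 20 without the skewed libraries. In contrast, 0 of 59 cytosolic ribosomal protein genes, 0 of 28 splicing factors, 0 of 21 collagen and matrix genes and 0 of 20 cell division genes reached an unadjusted p under 0.05 in either direction. Without the skewed libraries 4 cell division genes were higher (10.1% of all tested genes were), and 3 splicing factors and 1 ribosomal protein gene were lower (7.85% of all tested genes were).

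**Figure D4:**
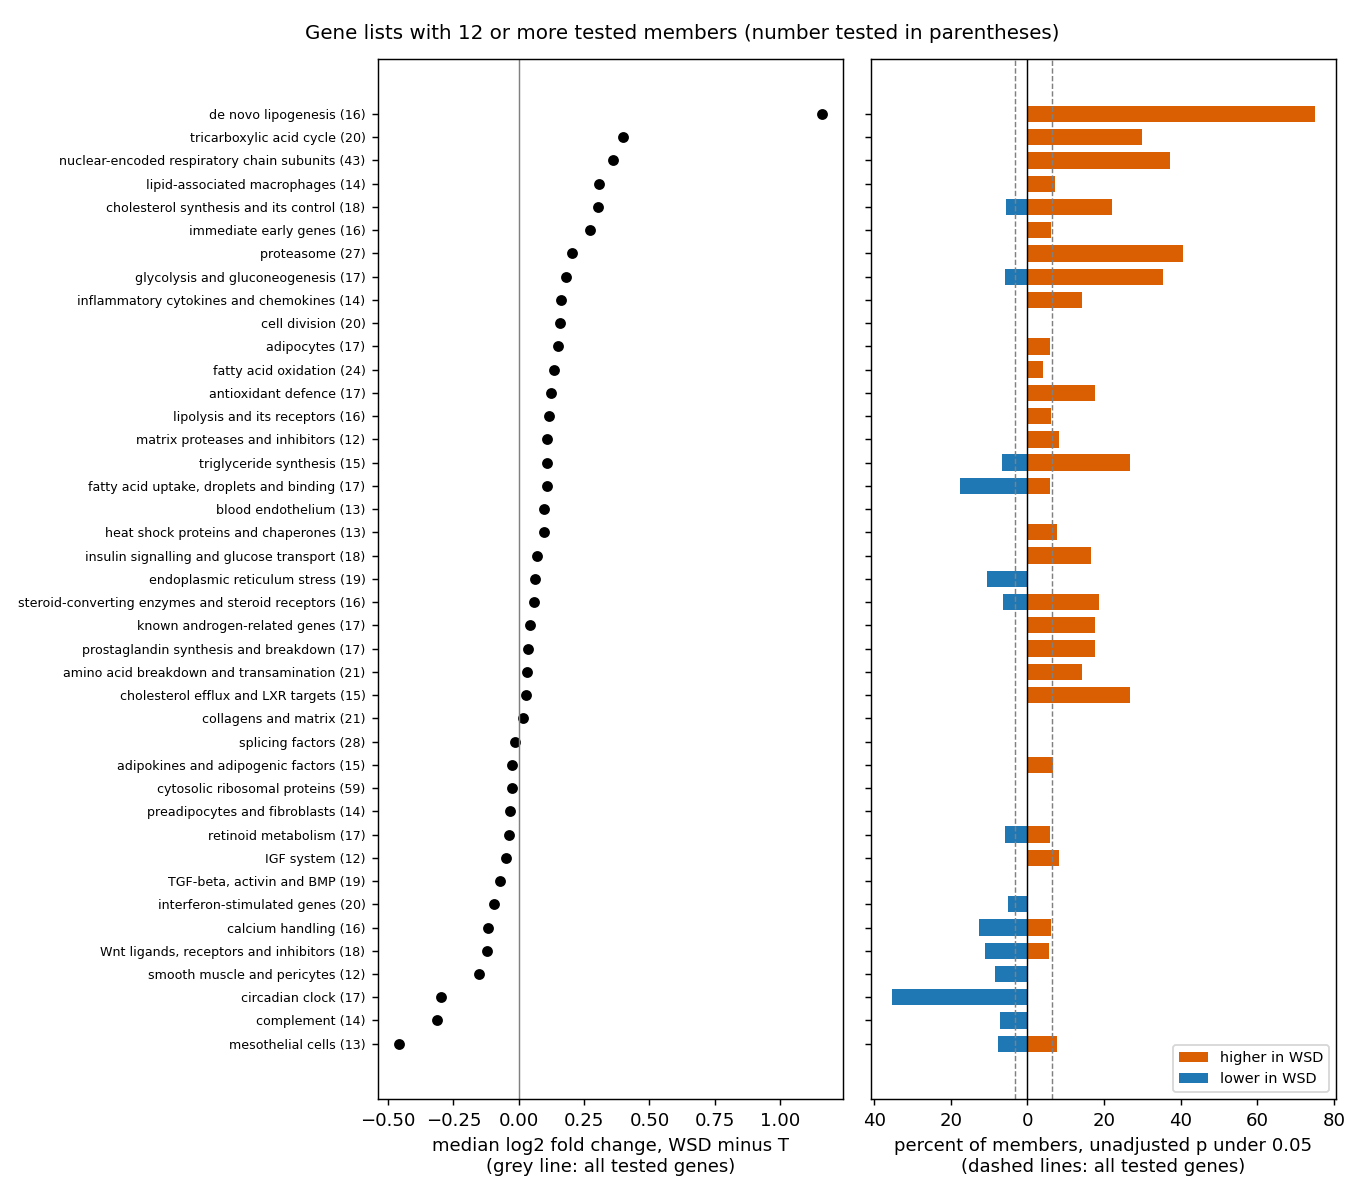
Gene lists with 12 or more tested members (y axis): median log2 fold change of *WSD* minus *T* (left) and percent of members at an unadjusted p under 0.05, with lower genes to the left of 0 and higher genes to the right (right panel, dashed lines at the 3.27% and 6.54% of all tested genes). De novo lipogenesis stands at a median of 1.16 and 75% higher, and the circadian clock at -0.30 and 35.3% lower.

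Clock genes had the opposite direction. Of 17 tested members 6 were lower in *WSD* at an unadjusted p under 0.05 (35.3%, against 3.27% of all tested genes) and 0 were higher, with a median of -0.30. The 3 PAR bZIP factors, output regulators of the clock, were among them. TEF ran from 25.3 to 55.7 CPM in *T* (median 40.5) and 14.3 to 31 in *WSD* (median 26.7), with a log2 fold change of -0.72 (SE 0.24, unadjusted p = 0.00665). HLF ran from 9.88 to 21.8 and 7.03 to 12.8 CPM (-0.58, SE 0.20, unadjusted p = 0.00762), and DBP from 17.8 to 46.9 and 14.9 to 35.8 CPM (-0.59, SE 0.24, unadjusted p = 0.0209). NR1D1, a repressor of the core loop, had medians of 13.3 and 9.48 CPM (-0.63, SE 0.29, unadjusted p = 0.0428), a value that was -0.38 without *T* replicate 14 and -0.41 without the skewed libraries. In *T* + *WSD* TEF averaged 22.5 CPM and DBP 18.6, the latter near the *WSD* mean of 21.8. The count was 2 without *T* replicate 16 or 17 or *WSD* replicate 23, and 3 without *WSD* replicate 19 or 22, and 1 member was higher without the skewed libraries or without *T* replicate 13 or *WSD* replicate 21, 23 or 24. The labels used here give no time of day for the biopsies.

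Of 17 tested members of the androgen list 3 were higher in *WSD* at an unadjusted p under 0.05 (17.6%, against 6.54% of all tested genes) and 0 were higher in *T*, with a list median of 0.04. Without the skewed libraries 1 member was higher in *T*. The 3 members higher in *WSD* in the fit of all animals were ACSL3, a long-chain acyl-CoA synthetase (medians 47.4 CPM in *T* and 84.5 in *WSD*, log2 fold change 1.21, SE 0.33, unadjusted p = 0.00113), TPD52, a lipid droplet-associated protein (21.1 and 25.1 CPM, 0.32, SE 0.12, unadjusted p = 0.0138) and ELL2, an elongation factor (82.8 and 104 CPM, 0.64, SE 0.31, unadjusted p = 0.0492). Without *WSD* replicate 20 the values of ACSL3 and ELL2 were 0.61 and 0.11, and without the skewed libraries 0.76 and 0.28, with TPD52 at 0.48. The list was drawn from genes known as androgen targets largely in other tissues.

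Steroid-converting enzymes and receptors had 3 of 16 members higher (18.8%, against 6.54% of all tested genes) and 1 lower (6.25%, against 3.27%). AKR1C1, an aldo-keto reductase whose reads may be shared with close paralogs, had medians of 411 CPM in *T* and 959 in *WSD* (0.79, SE 0.27, unadjusted p = 0.00825). HSD17B12 had medians of 60 and 117 CPM (0.79, SE 0.28, unadjusted p = 0.0101), and STS, the steroid sulfatase, of 17.2 and 41.9 CPM (0.94, SE 0.36, unadjusted p = 0.0153). ESR1, the estrogen receptor alpha, was the lower member, at 7.95 to 15.7 CPM in *T* and 5.78 to 10.7 in *WSD* (-0.56, SE 0.22, unadjusted p = 0.0193). The 3 higher members were 5 without *WSD* replicate 19, and the 1 lower was 0 without *T* replicate 18 or *WSD* replicate 23, 2 without *T* replicate 13 and 3 without the skewed libraries.

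Genes that separated the groups animal by animal were few. Of the 28 genes without overlap (0.184%), 15 have a symbol and a mean of at least 1 CPM. How many genes a random split of the animals would separate was not computed. MMP17 (ENSMMUG00000010331), a membrane-anchored matrix metalloproteinase, ran from 1.06 to 4.42 CPM in *T* (median 2.36) and from 9.43 to 42.7 in *WSD* (median 18.9), with a log2 fold change of 3.14 (SE 0.75, unadjusted p = 0.000366, edgeR adjusted p = 0.268, DESeq2 adjusted p = 0.00918). It averaged 22.2 CPM in *T* + *WSD* and 7.84 in *C*. TXNRD1, the cytosolic thioredoxin reductase, ran from 93.9 to 127 CPM in *T* and 130 to 210 in *WSD* (0.50, SE 0.12, unadjusted p = 0.000339), while *C* averaged 138 and *T* + *WSD* 158. The other genes above *T* besides AACS and LPCAT3 were EMC7, FAM136A, VPS29 and GNPDA2, with log2 fold changes from 0.22 to 0.56. Those below *T* were SLC11A1, KDM1A, CSNK1G1, PPP1R35, B3GNT8, ZNF620 and ZSWIM9, from -0.61 (B3GNT8) to -0.19 (KDM1A). SLC11A1, a divalent metal transporter of phagocytes, ran from 27.9 to 32.2 CPM in *T* and from 21.6 to 25.6 in *WSD* (-0.32, SE 0.10, unadjusted p = 0.00326).

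**Figure D5:**
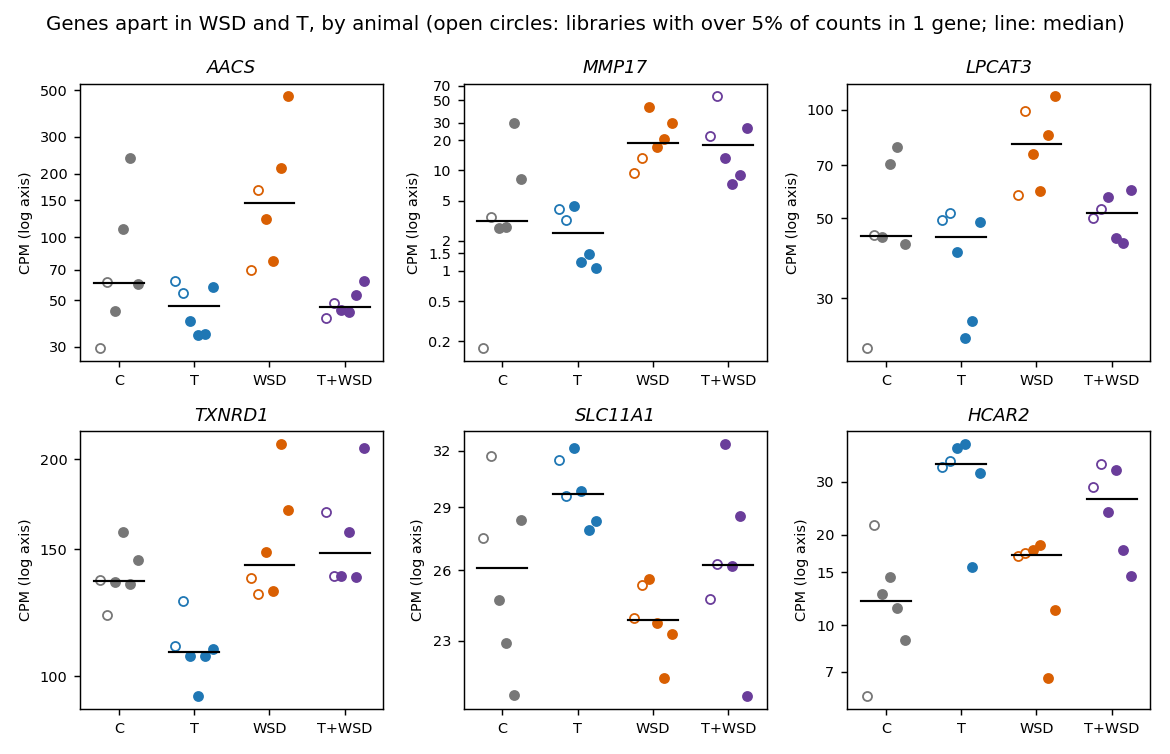
CPM (log axis) in each animal of the 4 groups (x axis) for 5 genes whose *WSD* and *T* animals do not overlap and for HCAR2, with the group median as a line and skewed libraries as open circles. MMP17 is at 9.43 CPM or more in every *WSD* animal and at 4.42 or less in every *T* animal, and HCAR2 overlaps only through *T* replicate 17 at 15.6 CPM.

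HCAR2 (ENSMMUG00000019939), the niacin and beta-hydroxybutyrate receptor that restrains lipolysis, was among the 4 genes that DESeq2 called lower in *WSD*. It ran from 15.6 to 40.2 CPM in *T* (median 34.4) and from 6.67 to 18.5 in *WSD* (median 17.2), with a log2 fold change of -1.15 (SE 0.29, unadjusted p = 0.000712, edgeR adjusted p = 0.268, DESeq2 adjusted p = 0.047). It averaged 12.5 CPM in *C* and 25.4 in *T* + *WSD*, so that both testosterone groups had the higher means. EYA2, a transcriptional coactivator with phosphatase activity, and KCNMA1, a calcium-gated potassium channel, both chosen after their values were seen, were the other named ones. EYA2 ran from 2.02 to 5.97 CPM in *T* and 0.204 to 2.33 in *WSD* (-1.80, SE 0.41, DESeq2 adjusted p = 0.0108), and KCNMA1 from 0.269 to 2.18 and 0.136 to 0.422 CPM (-1.88, SE 0.46, DESeq2 adjusted p = 0.0489).

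Among the other genes named by the study for a single treatment, LUC7L3, a splicing-related protein, had nearly equal values in both groups, at 72.5 to 99.9 CPM in *T* and 73.3 to 107 in *WSD* (log2 fold change -0.01, SE 0.13, unadjusted p = 0.967), with *C* at a mean of 129 CPM. GPT, alanine aminotransferase 1, ran from 0.598 to 1.22 and 0.197 to 1.08 CPM (-0.68, SE 0.38, unadjusted p = 0.0892). CCDC3, a secreted protein of fat and endothelium, ran from 48.7 to 217 and 98.6 to 351 CPM (0.80, SE 0.38, unadjusted p = 0.0453, edgeR adjusted p = 0.499).

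Amino acid, redox and prostaglandin genes each had 3 members higher at an unadjusted p under 0.05 and 0 lower, of 21, 17 and 17 tested (14.3%, 17.6% and 17.6%, against 6.54% of all tested genes). BHMT2 (ENSMMUG00000006796), which methylates homocysteine, had 0 to 8 counts in *T* (0 to 0.629 CPM) and 4 to 301 in *WSD* (0.542 to 12.3 CPM), and only the lowest *WSD* animal fell within the *T* range. Its log2 fold change was 4.58 (SE 0.95, unadjusted p = 7.75e-05, DESeq2 adjusted p = 0.00343), and *T* + *WSD* averaged 9.14 CPM. NQO1, a quinone reductase, had medians of 37.8 CPM in *T* and 79.4 in *WSD* (1.16, SE 0.40, unadjusted p = 0.00855). AKR1B1, aldose reductase, ran from 36.7 to 55.1 and 52.9 to 119 CPM (0.88, SE 0.21, unadjusted p = 0.000333, DESeq2 adjusted p = 0.0288), and PTGR1, which inactivates prostaglandins, from 3.63 to 10.6 and 7.74 to 28.7 CPM (1.11, SE 0.31, unadjusted p = 0.00152). Without *WSD* replicate 19 the amino acid count was 5, and without the skewed libraries the redox count was 5. The lower counts reached 2 for amino acid and 2 for redox genes when 1 animal was left out, and were 2 and 1 without the skewed libraries. Of 18 genes of insulin signalling and glucose transport 3 were higher (16.7%) and 0 lower, among them PIK3R1, the regulatory subunit of PI3 kinase (0.69, SE 0.20, unadjusted p = 0.00268), and AKT1 (0.28, SE 0.09, unadjusted p = 0.00558). The higher count was 5 without the skewed libraries and 5 with the adipocyte mean as a covariate, and the lower count was 4 without the skewed libraries and up to 3 when 1 animal was left out.

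Most lists of cell type markers had 0 or 1 member at an unadjusted p under 0.05 in each direction. Over the mesothelial list 11 of 13 members had negative log2 fold changes (median -0.46), with WT1 lower at an unadjusted p under 0.05 (56 to 105 CPM in *T*, 23.8 to 90 in *WSD*, -0.70, SE 0.32, unadjusted p = 0.042) and CALB2 higher (1.71 to 4.75 and 1.42 to 12.8 CPM, 1.32, SE 0.50, unadjusted p = 0.0155). The WT1 call was lost without *T* replicate 13, 16, 17 or 18 or *WSD* replicate 20, 21 or 22, and that of CALB2 without *WSD* replicate 24, leaving a count of 0 in each case. Of 17 adipocyte markers 1 was higher, RBP4, a retinol carrier, with medians of 414 CPM in *T* and 786 in *WSD* (0.83, SE 0.33, unadjusted p = 0.0199). That count was 0 without *WSD* replicate 20 or 24, 2 without *T* replicate 14 or *WSD* replicate 19, and 4 (with 1 lower) without the skewed libraries. Leptin (LEP) ran from 42.9 to 815 CPM in *T* and 205 to 1568 in *WSD* (1.12, SE 0.72, unadjusted p = 0.135), with values of 0.58 without *WSD* replicate 21, 1.79 without *T* replicate 14 and 2.02 without the skewed libraries, and ADIPOQ had a log2 fold change of -0.47 (SE 0.32, unadjusted p = 0.154), which was -0.29 without *WSD* replicate 23 and -0.82 without the skewed libraries. Of 14 markers of lipid-associated macrophages 11 were positive (median 0.31) and 1, APOC1, was higher, a count that was 0 without *T* replicate 17 or *WSD* replicate 20, 2 without *WSD* replicate 22 or 24, and 3 without *T* replicate 14 or without the skewed libraries. Neutrophil markers had 1 of 6 higher and 1 lower (16.7% each; CSF3R, -0.91), Schwann cell markers 1 of 6 lower (16.7%; CDH19, -0.95) and smooth muscle markers 1 of 12 lower (8.33%; MYH11, -1.13), against 6.54% higher and 3.27% lower among all tested genes. Without *T* replicate 18 CDH19 stood at -0.62. The lists of resident macrophages, T and NK cells, B and plasma cells, preadipocytes and fibroblasts, blood endothelium and lymphatic endothelium had 0 members at an unadjusted p under 0.05 in either direction. Without the skewed libraries 3 of 5 lymphatic markers were lower, as were 2 without *WSD* replicate 19, and 3 smooth muscle markers were lower and 2 higher. Without those libraries 10.1% of all tested genes were higher and 7.85% lower. The part of cell composition in the lipid results was not tested.

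Where the animals outside the contrast lie on these genes was described without a test. Of the 995 genes higher in *WSD* at an unadjusted p, *T* + *WSD* was above *C* in 657 (66%), and of the 497 lower genes in 143 (28.8%), against 45.1% of all tested genes. That contrast shares no animal with *WSD* against *T*. The mean of *C* lay between the 2 groups in 58.7% of the higher genes and beyond *T* in 36.2%, and for the lower genes in 67% and 24.5%. These genes were picked for the gap between *WSD* and *T*, which by itself favours a *C* mean between them. The same share over all tested genes was not computed, so no conclusion is drawn from these positions. Of the 32 genes that DESeq2 called higher in *WSD*, *T* + *WSD* was nearer to *WSD* for 17, such as MMP17, BHMT2 and HK2, and nearer to *T* for the rest, which hold ACLY, ACACA, ME1, SLC25A1, AACS and SLC2A5. That split is near the share over all tested genes. By means of log2 CPM, *T* + *WSD* was nearer to *WSD* in 56.3% of all tested genes and in 51% of the 995 higher ones. A pair of genes known from neurons, chosen after their values were seen, had higher means still under both treatments: NRCAM, a cell adhesion molecule, averaged 72.8 CPM in *T* + *WSD*, against 12.2 in *WSD* and 1.65 in *T*, and SLC24A2, a sodium, potassium and calcium exchanger, 28.8, 8.89 and 0.0988 CPM in that order. For NRCAM the log2 fold change of *WSD* minus *T* was 2.94 (SE 0.76, DESeq2 adjusted p = 0.0161) and became 1.94 without *WSD* replicate 21.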

How the data were processed

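Omental WAT of 24 female rhesus macaques was profiled by RNA-seq, and the 6 *WSD* and 6 *T* animals are compared here. The authors depleted ribosomal RNA (RIN above 8), sequenced single reads, checked them with FastQC 0.11.5, used Trimmomatic 0.36 for trimming, and placed the reads on rheMac8 by STAR 2.5.2b alignment. They deposited raw counts per gene for 32386 Ensembl identifiers, with no normalization and 1 column per animal. The counting tool and strand setting are not given in the sources used here, so values of antisense or overlapping genes and of close gene copies are uncertain. The paper's tables of comparisons were used only to name genes.

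Counts were TMM-normalized and tested with edgeR 4.0.16 (glmQLFit, robust=TRUE, legacy=TRUE, R 4.3.3) in 1 fit of 4 groups after filterByExpr (minimum count 10, minimum total 15), with two-sided p values and Benjamini-Hochberg adjustment. CPM values are counts scaled to the TMM-adjusted library size, and precision follows the depth given in the report. DESeq2 1.42.0, limma 3.58.1 (voom), other scalings and filters, covariates, the library subset and leaving out each animal were alternatives. The subset and covariate of the libraries rich in ENSMMUG00000038258 use a threshold of 5% of counts. Permutation tests are exact. The script was tested on simulated data.

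The members and lists were chosen with earlier results of these data known. Named genes are those without overlap between the groups (symbol, mean of at least 1 CPM, up to 12 per direction), up to 4 members of each list with the smallest p (15 of 16 for lipogenesis), the genes the study names for a single treatment, and ENSMMUG00000038258, and others are marked in the text. A pair of list members is counted in its lists but not reported here. HOXA10 and 211 of 1079 list entries, SCD and ELOVL6 among them, had no identifier in the name tables and were not analysed here, which includes all of a list of nuclear noncoding RNAs. No gene positions or sequences were used here. No libraries of 1 group were identical.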

Additional observations from a re-analysis of the deposited data

Results flagged for a closer look

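In 14 cases among the named genes, 1 of the 6 animals of a group lay so far from the other 5 that its gap exceeded Dixon's 95% critical value on the log2(CPM + 0.5) scale. Chance flags about 1 in 20 groups, and 258 groups (129 genes in *T* and in *WSD*) were examined. MOGAT2 stood at 136 CPM in *WSD* replicate 21 against 0 to 1.46 in the other *WSD* animals. WIF1, a secreted Wnt inhibitor, stood at 184 CPM in *T* replicate 18 against 9.94 to 18.5, and HOXA9, a depot-patterning factor, at 36.9 CPM in the same animal against 0.109 to 2.25. SLC24A2 (0.375 CPM) and ENSMMUG00000040072 (0.281 CPM) were also highest in that animal. CIDEB stood at 14.5 CPM in *T* replicate 17 against 1.02 to 2.54, and HCAR2 at 15.6 CPM in that animal against 32.1 to 40.2. In *T* replicate 14, APOC1 was at 597 CPM (others 128 to 204) and DLST at 217 (others 120 to 146). In *WSD* replicate 19, HK2 was at 17.3 CPM (others 44.1 to 62.7) and LDHA at 195 (others 299 to 377). In *WSD* replicate 23, CCL2 was at 52.1 CPM (others 10 to 15.3) and TEF at 14.3 (others 23.3 to 31). CSF3R was at 5.15 CPM in *WSD* replicate 20 (others 1.66 to 2.53).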

How the results depend on the processing

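The count of genes called was 0 higher and 0 lower under most alternatives. It was 32 higher and 4 lower with DESeq2, 75 and 8 without the skewed libraries, 1 and 0 with legacy=FALSE and with the mesothelial mean as a covariate, and 0 to 1 higher when 1 animal was left out (1 without *T* replicate 18). At an unadjusted p under 0.05, 1554 genes were higher and 1212 lower without the skewed libraries, 729 to 1307 and 361 to 654 when 1 animal was left out, and 845 and 639 with upper-quartile normalization. Without the skewed libraries the pseudo-F was 2.01 and the PC1 difference 19.8. Leaving out 1 animal gave a pseudo-F of 1.24 to 1.82, which passed 0.05 without *T* replicate 14 (1.60, exact permutation p = 0.0325) or *WSD* replicate 19 (1.82, p = 0.013), and a PC1 difference of 6.36 to 14.8, which passed without *WSD* replicate 19 (14.8, exact p = 0.013). On log2 CPM the exact permutation p values were 0.277 and 0.53. The lipogenesis count was 8 to 12 in all alternatives. With limma or only the 12 animals fitted, the higher members were 3 and 3 for the tricarboxylic acid cycle and 7 and 6 for the respiratory chain, and the lower clock genes 3 and 3. The respiratory chain count was 7 with the mesothelial covariate, the proteasome count 7 with only the 12 animals, and the triglyceride count 2 with at least 10 counts in every animal. Values near 0 changed sign: ACACB to -0.19 without the skewed libraries, -0.034 with the mesothelial and -0.024 with the adipocyte covariate (-0.11 to 0.26 without 1 animal), and LUC7L3 to 0.014 with limma, 0.034 and 0.018 with those covariates (-0.091 to 0.056). Without 1 animal FADS1 ran from -0.10 to 0.20 and FADS2 from -0.10 to 0.37. HOXA9 and WIF1 had log2 fold changes of -0.06 and -0.15 without *T* replicate 18. The causes were not tested. No paired analysis was possible because the groups share no replicate numbers. Depth limits genes such as MOGAT1, with 3 to 8 counts in *T*. The edgeR p values set each difference against a spread between animals estimated over all 4 groups of 6 animals. With only the 12 animals fitted, 732 genes were higher and 380 lower at an unadjusted p under 0.05.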

Other observations

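Inflammatory and matrix signals, not described above, had few members past the unadjusted threshold. Of 14 tested inflammatory cytokines and chemokines 2 were higher in *WSD* (14.3%, against 6.54% of all tested genes) and 0 lower, and the higher count ran from 1 (without *WSD* replicate 23) to 5 (without *WSD* replicate 24) when 1 animal was left out and was 5 without the skewed libraries. IL6 ran from 0.0898 to 1.42 CPM in *T* and from 0.166 to 10.4 in *WSD* (log2 fold change 2.49, SE 0.86, edgeR unadjusted p = 0.00839), and CCL2, a monocyte attractant, from 1.81 to 14.7 and 10 to 52.1 CPM (1.24, SE 0.45, unadjusted p = 0.0114), a value that was 0.62 without *WSD* replicate 23 and 1.88 without the skewed libraries. Of 20 interferon-stimulated genes 1 was lower (5%, against 3.27% of all tested genes), IFI6, at 30.6 to 366 CPM in *T* and 33.8 to 69.9 in *WSD* (-1.42, SE 0.43, unadjusted p = 0.00312). Its value was -0.71 without *T* replicate 14 and -0.63 without the skewed libraries, and the list's lower count was 0 without the skewed libraries, 2 without *T* replicate 14, 3 without *T* replicate 18 and 4 without *WSD* replicate 22. ADAMTS5, an aggrecan-cleaving protease, had medians of 79.1 and 138 CPM (1.02, SE 0.35, unadjusted p = 0.00855), and its value was 1.61 without the skewed libraries.

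Of 18 tested Wnt ligands, receptors and inhibitors 1 was higher (5.56%, against 6.54% of all tested genes) and 2 lower (11.1%, against 3.27%). The higher count was 0 without *WSD* replicate 24, and the lower count was 0 without *T* replicate 18 or *WSD* replicate 22 and 1 without *T* replicate 17 or *WSD* replicate 20, 21 or 24. DKK1, a secreted Wnt inhibitor, had medians of 2.46 CPM in *T* and 4.72 in *WSD* (1.24, SE 0.42, unadjusted p = 0.00789; 0.70 without *WSD* replicate 24), and SFRP2, another secreted inhibitor, ran from 3.86 to 42 and 4.19 to 11.1 CPM (-1.21, SE 0.52, unadjusted p = 0.0281; -0.72 without *T* replicate 18). WIF1 was the other lower gene (-1.78, SE 0.78, unadjusted p = 0.0324), and stood at -0.15 without *T* replicate 18. MYH11, a smooth muscle myosin, ran from 88.8 to 373 CPM in *T* and 51.1 to 135 in *WSD* (-1.13, SE 0.39, unadjusted p = 0.00852).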
